A study of Mus musculus with 6 samples.

Results

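The metalloproteinases and their inhibitors were read as 79 gene symbols of 24063 in the deposited tables: 23 matrix metalloproteinases (MMP), 33 ADAM, 19 ADAMTS and 4 TIMP genes. They were taken by name, as every symbol of the Mmp, Adam and Adamts series and Timp1 to Timp4, whatever its values. The family itself was chosen with earlier results of these data known. RNA was sequenced from ECs that anti-CD31 magnetic beads took from the lungs of male C57BL6 mice, giving 3 sham-operated libraries and 3 made 7 days after pneumonectomy (PNX) on 1 side, which takes out 1 lung and is followed by growth of the other. Sham mice had the thoracotomy without PNX. The mice carried no transgene, each library was pooled from 2 mice, and their age is given as 8 weeks in the labels and as 12 to 15 weeks in the methods.

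MMPs are zinc endopeptidases that cut collagens, gelatin and other extracellular matrix, some secreted and some held at the cell surface. ADAMs are membrane proteins, several of which release the outer part of other membrane proteins, and ADAMTSs are secreted relatives that process procollagen, proteoglycans or von Willebrand factor. TIMPs are small secreted proteins that sit in the active site of these enzymes and block it. In endothelium the enzymes are known for the breakdown of basement membrane when vessels sprout, and Mmp14 for activating pro-Mmp2 together with Timp2.

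The shared feature of the active enzymes is a stretch of 33 coding bases for a glutamate between histidines that hold the catalytic zinc. It was searched in the GENCODE vM21 coding sequences as the codons for histidine, glutamate, any pair of residues, histidine, any pair, glycine or asparagine, any pair and histidine. All 23 MMPs, 20 of the 33 ADAMs and 18 of the 19 ADAMTSs held it, 5 of these ADAMTSs with the asparagine codon, and none of the 4 TIMPs did. The ADAMTS without a match was Adamts8. The search would miss a site with a residue other than glycine or asparagine there, so no match does not mean no zinc site. The lines below show it for members that the comparison turns on, 5′ to 3′ on the coding strand, with the 3 histidine codons in capitals. Positions are on GRCm38 (mm10), and those of most ADAMTSs run across an intron that is not in the printed bases.
Mmp14, chr14:54437627-54437659, plus strand: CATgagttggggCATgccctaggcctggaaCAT
Mmp2, chr8:92839279-92839311, plus strand: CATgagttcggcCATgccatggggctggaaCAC
Mmp19, chr10:128795673-128795705, plus strand: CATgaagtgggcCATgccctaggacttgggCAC
Mmp13, chr9:7276573-7276605, plus strand: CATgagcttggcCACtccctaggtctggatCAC
Mmp10, chr9:7504858-7504890, plus strand: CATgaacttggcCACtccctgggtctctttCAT
Adam12, chr7:133961158-133961190, minus strand: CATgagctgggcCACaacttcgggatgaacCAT
Adam28, chr14:68633167-68633199, minus strand: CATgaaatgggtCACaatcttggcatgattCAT
Adamts2, chr11:50775403-50776134, plus strand: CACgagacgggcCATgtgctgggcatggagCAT
Adamts4, chr1:171253210-171253915, plus strand: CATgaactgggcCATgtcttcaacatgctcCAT
Adamts12, chr15:11241529-11255564, plus strand: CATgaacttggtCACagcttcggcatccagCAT
Adamts16, chr13:70787149-70791812, minus strand: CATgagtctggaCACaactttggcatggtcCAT
Adamts4 has the asparagine codon where the others have that of glycine.

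Total counts ran from 29526989 to 81282871 per library, with replicates 3 the shallowest. In the labels, replicates 1 and 2 (sham and PNX alike) are re-used from an earlier record. Their counts differed by little more than counting error, with a chi-square of 1.75 per degree of freedom in sham and 1.57 in PNX against 67.9 to 86.4 for pairs with replicate 3, so they were summed and counted as 1 sample, and each group had 2 samples. The p-values measure the spread between these few samples only. Replicate 3 also stood apart in its markers: the summed counts scaled to library size (CPM) of 7 neutrophil genes were 455 in sham replicate 3 and 374 in PNX replicate 3, and 158 to 176 in the other libraries. Of the 12 endothelial markers none was called in either direction, and their summed CPM was 11937, 12036 and 9897 in sham and 10256, 10329 and 9050 after PNX.

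Calls required an adjusted p (Benjamini-Hochberg over all genes) under 0.01 and a log2 fold change beyond 1 in either direction. Without a block for the deposit (replicates 1 and 2 against replicate 3), edgeR called 0 of 16598 genes (0.0%) and 0 of the 59 members tested. An unadjusted p under 0.05 was reached by 20 of the 59 members and 2076 of all genes, and Timp1 shared the lowest adjusted p of all genes, 0.0720. DESeq2 on the same 4 samples gave 62 members an adjusted p and called 13 higher and 1 lower, against 2.78% and 0.486% of all genes with such a p. On these samples limma-voom called 0 members. The fit with the replicate block called 15 members higher (25.4% of the 59, against 3.89% of all genes) and 1 lower (1.69%, against 1.23%). Among all genes this fit called 645 higher and 204 lower, and 540 and 84 with the size factors of DESeq2. With 6 separate libraries edgeR called 13 of 58 members, all higher (22.4%, against 2.28% of all genes), and none lower (against 0.24%). All 13 were among the 15. In what follows, "rose" and "fell" are used of members called with the replicate block, where the fit has 1 residual degree of freedom. Fold changes are from the fit without it, and adjusted p-values from edgeR are given for both.

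By class, the members called higher were 7 of 18 tested MMPs, 1 of 18 ADAMs, 6 of 19 ADAMTSs and 1 of 4 TIMPs, and the member called lower was an ADAM. Of all genes 3.89% were called higher and 1.23% lower, so 1 call each way among the ADAMs says little of that class. The median log2 fold change was 0.86 over the MMPs, 0.81 over the ADAMTSs, 0.12 over the ADAMs and 0.09 over the TIMPs, beside −0.01 over all genes tested. All 3 PNX libraries lay above all 3 sham libraries for 27 of the 59 members (45.8%, against 18.8% of all genes) and below them for 6 (10.2%, against 17.9%). The remaining 20 members were not tested: 12 had no count in any library, and the largest total of the other 8 was 23 counts over the 6 libraries. They comprised 15 ADAMs, most of them known from testis, and Mmp1a, Mmp1b, Mmp7, Mmp20 and Mmp21.

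**Figure D1:**
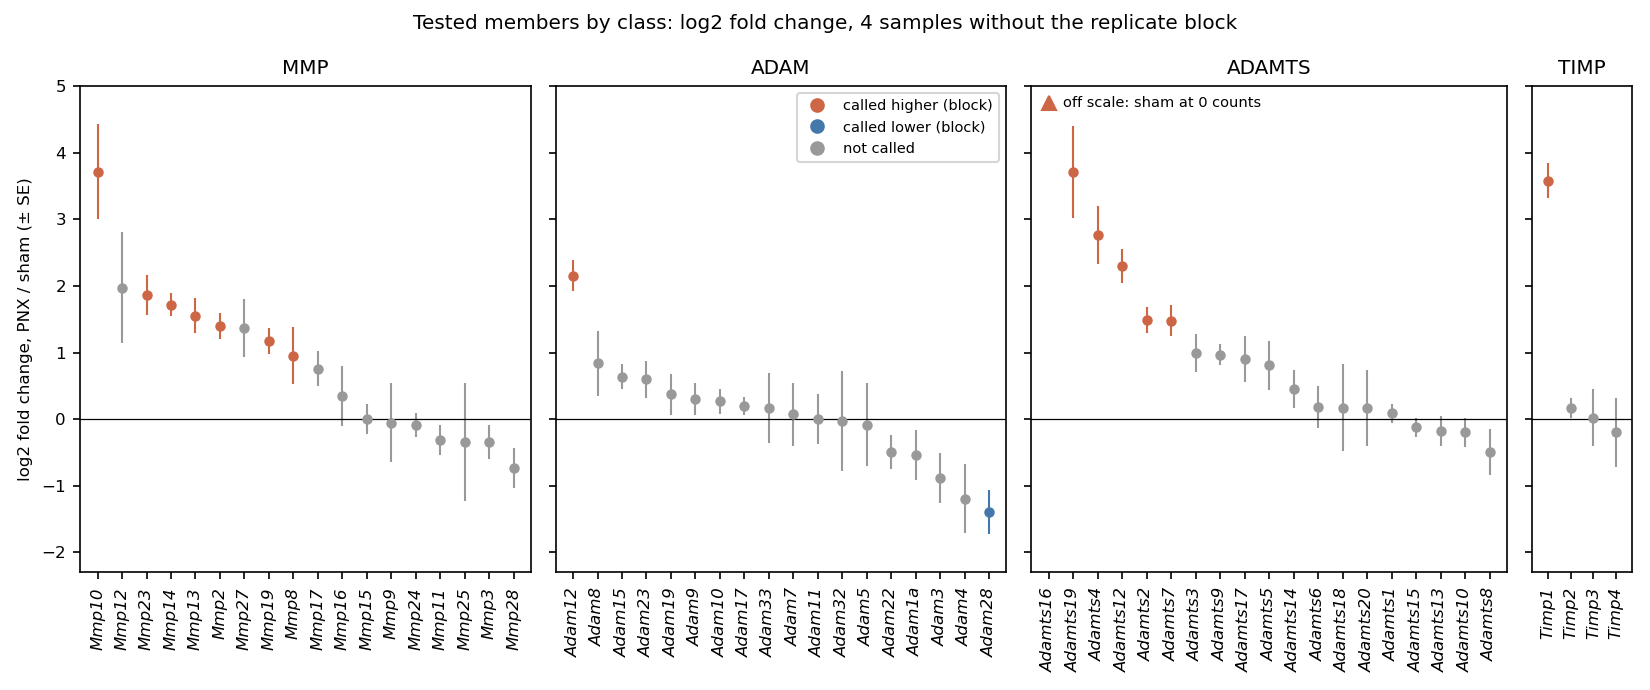
Log2 fold change (PNX over sham, y axis, with its standard error) of the 59 members tested, ordered within each class on the x axis, from 2 samples per group without the replicate block. Orange points were called higher and the blue point lower with the block, and Adamts16, with 0 counts in sham, is drawn off scale; high values are spread over MMPs and ADAMTSs, while 3 of 4 TIMPs sit near 0.

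Among the TIMPs, Timp1 alone was called. Timp1 (chrX:20870166-20874735, plus strand, inside an intron of Syn1 on the other strand) blocks most soluble MMPs and is known as an inducible member of the family. Its CPM was 9.45, 7.69 and 9.50 in the sham libraries and 87.6, 84.3 and 130 after PNX. The groups were far apart, and PNX replicate 3 was the highest library. The log2 fold change was 3.58 ± 0.26 (SE), an 11.96-fold difference, with an adjusted p of 0.0720 without the block and 1.63e-05 with it. The 3 RefSeq transcripts of Timp1 hold nearly equal counts (254 each in sham replicate 1), so that reads they share may have been counted on each. This scales all libraries alike.

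The other TIMPs gave no call. Timp2, which inhibits MMPs and takes part in the activation of pro-Mmp2, had 455, 459 and 465 CPM in sham and 491, 491 and 541 after PNX. All PNX values were above the sham values, but the log2 fold change was only 0.16 ± 0.15 (adjusted p = 0.747 without the block and 0.303 with it). Timp3, the matrix-bound inhibitor that also blocks ADAM17 and several ADAMTSs, had 845, 837 and 462 CPM in sham and 866, 877 and 461 after PNX. Both replicates 3 were low and the groups overlapped, with a log2 fold change of 0.02 ± 0.43 (adjusted p = 0.994 and 0.895). The exons of Timp3 lie under exons of Syn3 on the other strand over 1733 bases, and whether the counting used the strand is not given in the sources used here. Exons on the other strand also overlap those of Adam3, Adam15, Adam17, Adamts4, Adamts9, Mmp12, Mmp28 and Timp4, by 90 to 1805 bases. Timp4 was near the lower end of detection, with 0.302 to 0.778 CPM over the 6 libraries and a log2 fold change of −0.20 ± 0.51 (adjusted p = 0.934 and 0.773).

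Levels of different genes can be compared only per length, for which the deposited TPM (transcript abundance per length, on a scale that sums to the same total in each library) of the transcript with the most counts was taken for each gene. By this measure Timp3 and Timp2 made up nearly all inhibitor RNA in sham. Timp3 was at 457, 453 and 246 TPM and Timp2 at 318, 321 and 320, so these neighbours changed places between deposits. Timp1 was at 8.97, 7.30 and 8.90 TPM in sham and at 81.2, 78.3 and 124 after PNX. Its share of the TIMP total went from 1.14, 0.934 and 1.54% to 9.28, 8.90 and 16.4%, and the ratio of Timp1 to Timp2 from 0.0228–0.0282 to 0.233–0.327. Summing the TPM of all transcripts of a gene, which may count shared reads of Timp1 up to 3 times, gave Timp1 shares of 3.08 to 5.01% in sham and 24.8 to 39.9% after PNX. Which measure is nearer depends on how reads were counted, which is not given in the sources used here. With 1 transcript a gene Timp1 stayed below Timp2 and Timp3 in every library, whereas with the sums it was above both in PNX replicate 3.

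**Figure D2:**
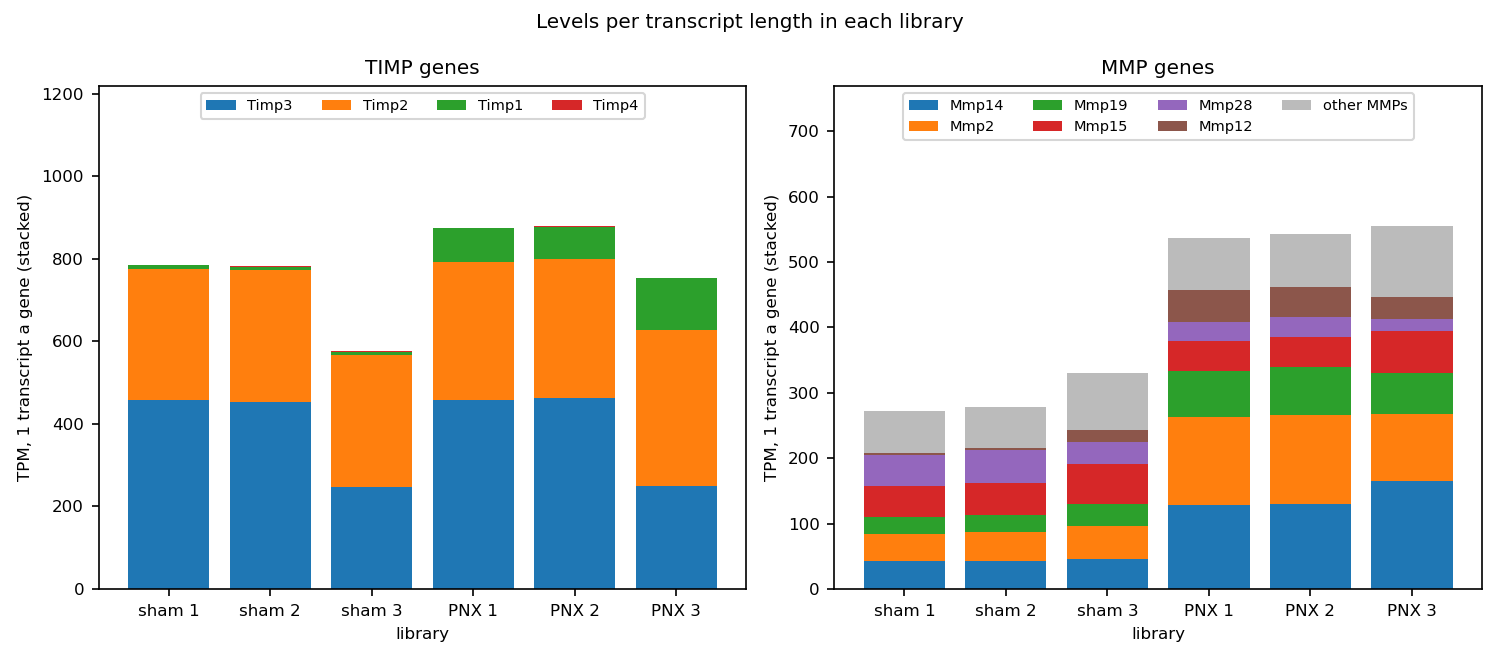
Stacked TPM (y axis, 1 transcript a gene) of the TIMP genes (left) and the MMP genes (right) in each of the 6 libraries (x axis). Timp1 (green, left) is a thin band in sham and reaches 81.2, 78.3 and 124 TPM after PNX, while Mmp14 and Mmp2 widen most among the MMPs.

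The summed TPM of the MMP genes was 272, 279 and 330 in sham and 537, 543 and 555 after PNX, with no overlap. That of the TIMP genes was 785, 782 and 576 in sham and 875, 879 and 753 after PNX, which overlapped through the replicates 3. With all transcripts summed, the MMP totals (346 to 400 and 639 to 648 TPM) and the TIMP totals (597 to 806 and 1046 to 1068 TPM) did not overlap. The ratio of TIMP to MMP RNA was 2.89, 2.81 and 1.74 in sham and 1.63, 1.62 and 1.36 after PNX. All PNX values were lower, but with the TPM of all transcripts summed the ratio was 2.33, 2.25 and 1.49 in sham and 1.67, 1.64 and 1.64 after PNX, and sham replicate 3 lay below the PNX libraries. These sums count RNA and say nothing of active protein. The ADAM total went from 343–379 to 496–503 TPM and the ADAMTS total from 290–308 to 335–337 TPM, the latter overlapping with all transcripts summed (477 to 554 and 525 to 556 TPM).

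Mmp14 and Mmp2 carried most of the difference in the MMP total. Mmp14 (chr14:54431612-54445364), the membrane-type collagenase that activates pro-Mmp2, had 43.9, 43.9 and 48.6 CPM in sham and 135, 136 and 169 after PNX. The values were tight within each group and rose 3.29-fold, with a log2 fold change of 1.72 ± 0.17 (adjusted p = 0.0738 without the block and 3.72e-05 with it). Mmp2 (chr8:92827291-92853420), gelatinase A, had 49.3, 53.2 and 59.9 CPM in sham and 167, 169 and 124 after PNX. It rose too, by 1.39 ± 0.20 on the log2 scale (adjusted p = 0.0926 and 7.82e-04), less in replicate 3, with log2 ratios of 1.69 in the earlier deposit and 1.07 in the later. Mmp9, gelatinase B, had 15.2, 14.99 and 35.3 CPM in sham and 13.6, 13.9 and 34.6 after PNX. Here the deposit and not the surgery separated the libraries, as it did for the neutrophil markers, and the log2 fold change was −0.05 ± 0.59 (adjusted p = 0.991 and 0.573). Mmp9 was named after its values were seen.

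Other membrane-anchored MMPs differed among themselves. Mmp23 (chr4:155650655-155653384), a small enzyme with its anchor at the N-terminal end, had 2.75, 2.30 and 2.91 CPM in sham and 7.80, 7.68 and 12.1 after PNX. It rose by 1.86 ± 0.30 on the log2 scale (adjusted p = 0.111 without the block and 5.54e-04 with it). Mmp15, the closest relative of Mmp14, had 81.1, 84.2 and 105 CPM in sham and 78.1, 80.2 and 108 after PNX. It had the highest mean TPM of all MMPs in sham (53.0), and its log2 fold change was 0.00 ± 0.22 (adjusted p = 1.00 and 0.944). Of the 7 membrane-anchored MMPs, all tested, only Mmp14 and Mmp23 were called, and the other log2 fold changes lay between −0.34 and 0.76.

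Among the remaining MMPs, Mmp19 (chr10:128790910-128800824), a secreted enzyme of broad matrix specificity, had 68.7, 68.7 and 91.8 CPM in sham and 191, 199 and 167 after PNX. It rose by 1.17 ± 0.19 on the log2 scale (adjusted p = 0.111 without the block and 1.44e-03 with it), with log2 ratios of 1.47 in the earlier deposit and 0.89 in the later. Exons of Gm47093 and Tmem198b on the other strand cover 1001 of its 3533 exon bases. Mmp28, epilysin, went the other way: its CPM was 85.2, 90.7 and 63.4 in sham and 56.4, 56.1 and 35.0 after PNX. All PNX values were lower, but the log2 fold change of −0.73 ± 0.30 missed the limit on size (adjusted p = 0.422 without the block and 1.42e-03 with it). In mean TPM with 1 transcript a gene, Mmp15, Mmp2, Mmp14 and Mmp28 were the top 4 MMPs in sham, at 34.2 to 61.1 TPM with overlapping ranges. After PNX Mmp14 (128 to 165 TPM) and Mmp2 (103 to 137 TPM) led, with overlapping ranges between them, and both lay above Mmp19 (62.4 to 72.5 TPM).

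Mmp12, macrophage elastase, varied widely among the sham libraries (named after its values were seen), with 4.31, 4.42 and 25.7 CPM in sham and 69.7, 67.6 and 46.9 after PNX. Sham replicate 3 lay several times above the other sham libraries, so that the log2 ratio was 3.95 in the earlier deposit and 0.90 in the later. The log2 fold change of 1.98 ± 0.83 was not called (adjusted p = 0.442 without the block and 0.0348 with it). The summed CPM of 10 macrophage and monocyte markers was 2347, 2334 and 4331 in sham and 3189, 3178 and 4242 after PNX. In that list 4 of 10 genes were called higher with the block, against 3.89% of all genes. They were C1qa, C1qb, C1qc and Marco, of which Marco marks alveolar macrophages. Their part in the level of Mmp12 was not tested. In bulk RNA, more cells of a type and more RNA per cell cannot be told apart.

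A set of 10 MMP genes lies within 427 kb of chromosome 9 (chr9:7272514-7699585), in the order Mmp13, Mmp12, Mmp1b, Mmp3, Mmp1a, Mmp10, Mmp8, Mmp27, Mmp20 and Mmp7. Of these, 6 were tested, and Mmp13, Mmp10 and Mmp8 were called higher with the block. Mmp13, a collagenase, had 1.03, 1.28 and 1.25 CPM in sham and 3.96, 3.60 and 3.22 after PNX, and rose by 1.55 ± 0.26 on the log2 scale (adjusted p = 0.120 without the block and 2.52e-03 with it). Mmp10, a stromelysin, rested on 2, 1 and 2 counts in sham and 34, 33 and 9 after PNX. The ratio per library size was 24.3 in the earlier deposit (95% exact interval from counts 7.97 to 121) and 5.08 in the later (1.05 to 48.3), both intervals covering counting error only. The adjusted p was 0.144 without the block and 6.67e-03 with it, and the call was lost in 6 of 9 blocked alternatives, those without replicate 1 and without replicate 2 among them. Mmp8, the neutrophil collagenase, had 6.41, 6.50 and 13.3 CPM in sham and 14.0, 15.4 and 23.3 after PNX. The groups did not overlap, but sham replicate 3 came close to the PNX libraries. Its blocked log2 fold change was 1.00 ± 0.12 (adjusted p = 0.469 without the block and 1.60e-03 with it), at the limit for a call, and the call was lost in 4 of 9 blocked alternatives. The other tested genes of the cluster apart from Mmp12 were Mmp3, with 8.82, 8.96 and 9.80 CPM in sham and 8.88, 8.74 and 5.83 after PNX, and Mmp27, with 0.140 to 0.199 and 0.390 to 0.503 CPM. Neither was called (adjusted p without the block 0.678 and 0.309, with it 0.220 and 0.0551).

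Because several of the cluster's genes are textbook targets of the AP-1 factors, the RefSeq promoter windows on GRCm38.p6 (250 bases before to 50 after each start) were searched for TGACTCA or TGAGTCA, which are each other's reverse complement. Of all 27025 genes with a window, 1607 (5.95%) held it, and of 49 members with a window 10 did (20.4%). In the cluster 7 of 10 genes held it, and of 17 ADAMs with a window 3 did (17.6%), namely Adam19, Adam1b and Adam29. None of the 8 MMPs elsewhere with a window, none of 10 ADAMTSs and none of 4 TIMPs did, Timp1 included. The search takes exact matches only, so no match does not mean no AP-1 site. Mmp12 and Mmp7 each had another window, at a different start, without the motif. The 7 genes of the cluster are printed because they share the motif within 93 bases before a start, 5′ to 3′ on the gene's strand, with the motif in capitals.
Mmp13, chr9:7272459-7272505, plus strand: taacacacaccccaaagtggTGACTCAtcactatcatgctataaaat
Mmp12, chr9:7347310-7347356, plus strand: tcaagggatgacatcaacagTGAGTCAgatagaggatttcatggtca
Mmp3, chr9:7445756-7445802, plus strand: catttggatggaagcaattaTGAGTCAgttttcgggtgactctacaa
Mmp10, chr9:7502259-7502305, plus strand: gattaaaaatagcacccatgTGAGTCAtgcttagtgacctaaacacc
Mmp7, chr9:7692007-7692053, plus strand: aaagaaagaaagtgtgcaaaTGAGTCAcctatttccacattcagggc
Mmp1a, chr9:7464048-7464094, plus strand: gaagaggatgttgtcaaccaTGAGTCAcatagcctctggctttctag
Mmp1b, chr9:7388093-7388139, minus strand: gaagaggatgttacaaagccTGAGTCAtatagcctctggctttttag
The printed windows of Mmp1a and Mmp1b, paralogs with Mmp3 between them on the chromosome, are identical at 40 of 47 positions aligned without gaps. Of the members called with the block, Mmp10 and Mmp13 of 8 with a window held the motif, Mmp8 was called without it, and Mmp3 and Mmp12 held it without a call. Of the members tested and not called, 3 of 27 with a window held it.

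The ADAMTS genes that rose belong to several functional groups. Adamts2 (chr11:50602084-50807573), which removes the N-terminal propeptide of fibrillar procollagens, had 36.3, 37.6 and 51.1 CPM in sham and 118, 118 and 128 after PNX. It rose 2.80-fold, with a log2 fold change of 1.48 ± 0.20 (adjusted p = 0.0873 without the block and 9.18e-05 with it). The other procollagen-processing members, Adamts3 and Adamts14, had log2 fold changes of 0.99 ± 0.28 (adjusted p = 0.267 without the block and 0.0160 with it) and 0.45 ± 0.28 (0.617 and 0.0577) and were not called. Adamts4 (chr1:171250421-171260637), an aggrecanase, had 1.17, 0.991 and 1.99 CPM in sham and 7.33, 7.97 and 12.6 after PNX. Replicate 3 was the highest library in both groups, and the log2 fold change was 2.76 ± 0.44 (adjusted p = 0.111 and 4.99e-05). Of the 7 proteoglycan-cleaving members only Adamts4 was called. Adamts1, the ADAMTS with the highest mean TPM in sham with 1 transcript a gene (130), was near the same level in both groups, with 245, 245 and 264 CPM against 259, 257 and 283 (adjusted p = 0.877 without the block and 0.529 with it). Adamts9 missed the size limit with a log2 fold change of 0.97 ± 0.15 (adjusted p = 0.111 without the block and 3.06e-04 with it, named after its values were seen), its CPM going from 33.8, 35.1 and 30.8 to 70.2, 67.9 and 58.9.

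Adamts7 and Adamts12, which both cut cartilage oligomeric matrix protein, rose together. Adamts12 had 1.60, 1.91 and 2.14 CPM in sham and 7.97, 8.66 and 10.7 after PNX, a log2 fold change of 2.30 ± 0.26 (adjusted p = 0.0738 without the block and 1.04e-04 with it). Adamts7 had 3.16, 3.32 and 3.15 CPM in sham and 8.06, 7.39 and 10.1 after PNX, a log2 fold change of 1.48 ± 0.23 (adjusted p = 0.111 and 1.51e-03). Its exons overlap those of Tbc1d2b on the other strand over 122 bases. The sham values were close to each other for both genes and no libraries overlapped.

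Of the ADAMTSs that rose, Adamts16 and Adamts19 had the lowest levels in sham. Adamts16 (chr13:70727802-70841811) had 0 counts in all 3 sham libraries and 81, 64 and 54 counts after PNX (1.09, 0.976 and 1.81 CPM). Set against 3 counts over the sham libraries together, the upper limit that 0 counts allow, it was at least 72.7-fold higher after PNX, at least 52.6-fold in the earlier deposit and at least 20.3-fold in the later. The adjusted p was 0.0873 without the block and 5.59e-04 with it. The call was lost with DESeq2 and the block. Adamts19 had 9, 13 and 13 counts in sham and 144, 134 and 126 after PNX, or 0.112, 0.181 and 0.386 against 1.94, 2.04 and 4.22 CPM. Its log2 fold change was 3.71 ± 0.69 (adjusted p = 0.139 and 1.87e-04), with log2 ratios of 3.76 in the earlier deposit and 3.48 in the later. Adamts10, which binds fibrillin microfibrils, had the second highest level per length of this class in sham and was not called: its CPM was 561, 567 and 427 in sham and 479, 479 and 387 after PNX (log2 fold change −0.20 ± 0.22, adjusted p = 0.799 without the block and 0.226 with it).

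**Figure D3:**
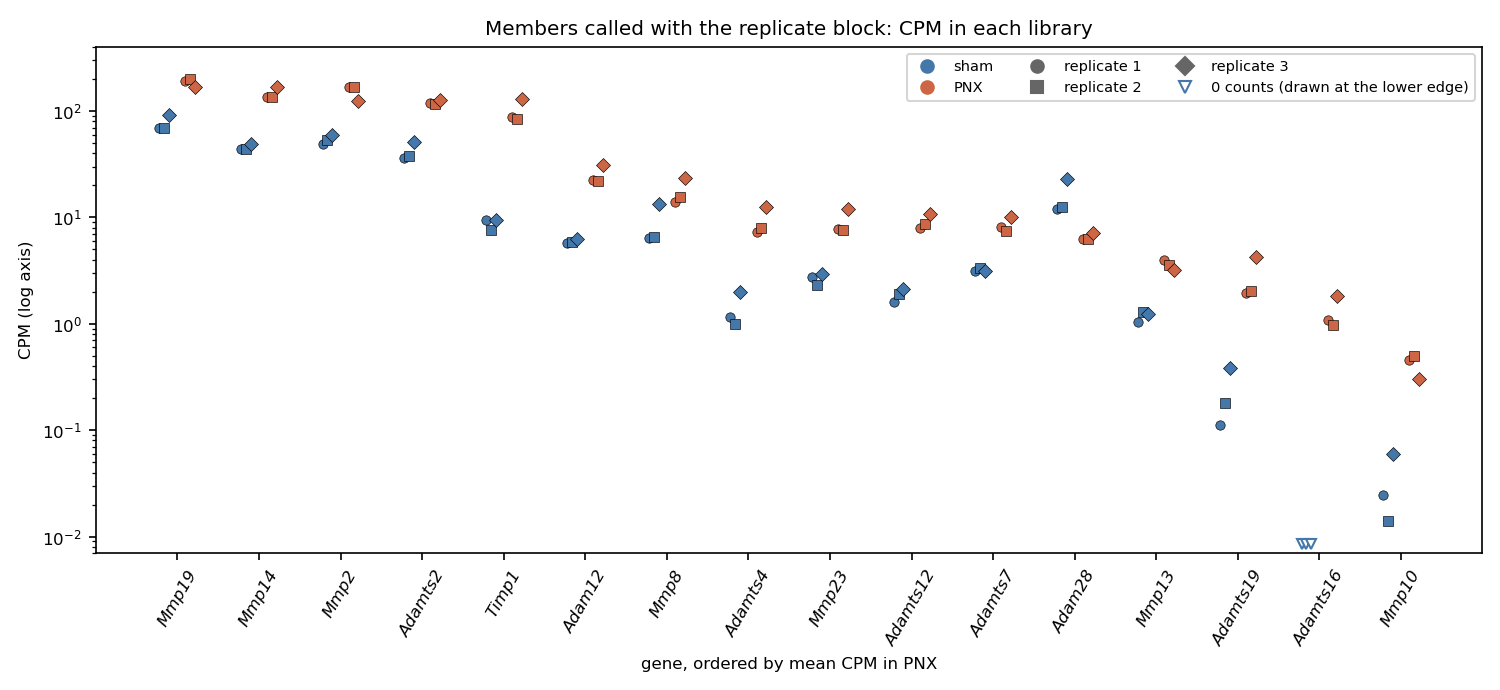
CPM (y axis, log scale) of the 16 members called with the replicate block, in each sham (blue) and PNX (orange) library, ordered on the x axis by mean CPM in PNX. No gene has overlapping groups, Adam28 alone is lower after PNX, and the open triangles mark the 3 sham libraries of Adamts16 with 0 counts.

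Among the ADAMs, Adam12 (chr7:133883199-134232146), a protease linked to growth factor shedding and mesenchymal cells, had 5.72, 5.92 and 6.24 CPM in sham and 22.6, 21.9 and 31.3 after PNX. It rose 4.45-fold, by 2.15 ± 0.23 on the log2 scale (adjusted p = 0.0738 without the block and 7.65e-05 with it). Adam28 (chr14:68606027-68655842), known from lymphocytes, had 12.05, 12.6 and 22.8 CPM in sham and 6.24, 6.20 and 7.11 after PNX. It fell, with a log2 fold change of −1.39 ± 0.33 (adjusted p = 0.206 and 1.93e-03), and it was not called with the 6 libraries as separate replicates. Of 6 club and airway epithelial markers, 5 were called lower with the block, against 1.23% of all genes. Their summed CPM was 2530, 2541 and 4513 in sham and 1263, 1223 and 1177 after PNX. That of 7 T, B and NK cell markers, none of them called, was 75.5, 75.5 and 93.9 in sham and 46.3, 42.1 and 50.7 after PNX. Sham replicate 3 was thus the highest library for Adam28 and for both lists, and their part in its level was not tested.

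No other plentiful ADAM was called. Adam15, which binds integrins and is plentiful in endothelium, had the highest level per length of the ADAMs, with 403, 399 and 310 CPM in sham and 557, 562 and 549 after PNX. All PNX libraries were higher, but the log2 fold change of 0.64 ± 0.19 did not reach the limit (adjusted p = 0.285 without the block and 0.01002 with it). Adam17, which sheds TNF and EGF receptor ligands, had 339, 332 and 359 CPM in sham and 392, 392 and 405 after PNX (log2 fold change 0.20 ± 0.14, adjusted p = 0.657 and 0.171). Adam9 had 184, 177 and 139 CPM in sham and 231, 229 and 165 after PNX, with overlapping groups (log2 fold change 0.30 ± 0.23, adjusted p = 0.696 and 0.0423). Adam10, the constitutive sheddase of Notch receptors and VE-cadherin, had 127, 128 and 100 CPM against 149, 147 and 126 (adjusted p = 0.659 and 0.0612, named after its values were seen). The 3 lowest log2 fold changes of all members were those of Adam28, Adam4 (−1.19 ± 0.52) and Adam3 (−0.88 ± 0.38), and the last pair, both known from testis and without the zinc-binding stretch, had at most 0.416 and 1.99 CPM in any library and were not called (adjusted p without the block 0.455 and 0.450, with it 0.117 and 0.0938).

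**Figure D4:**
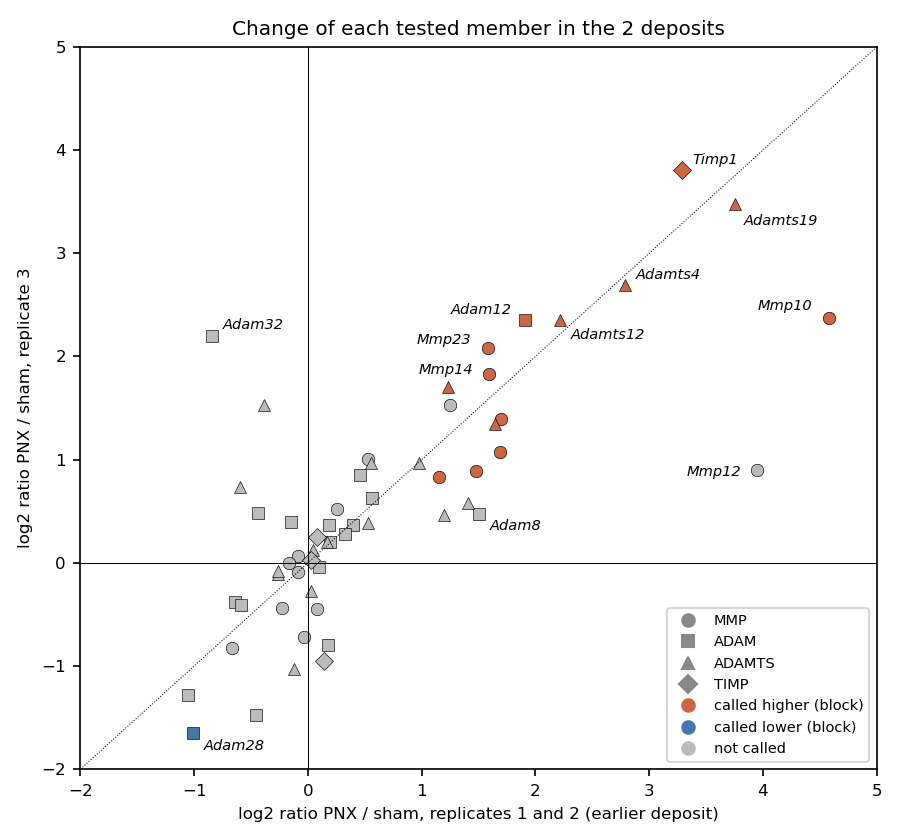
Log2 ratio of PNX to sham in the earlier deposit (replicates 1 and 2, x axis) and in replicate 3 (y axis) for the 58 tested members with counts in every sample, with symbols by class and colours by the call with the block. The 14 members called higher that have both ratios lie above 0 on both axes, but they were called from these same samples. Mmp12, Mmp10 and Adam32 lie farthest from the dotted line of equal ratios.

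The deposits are separate libraries and so give the comparison once each. Of the 58 tested members with counts in all 4 samples, 34 were higher after PNX in both deposits, 13 lower in both and 11 opposite. Of all 16496 tested genes with such counts, 5921 were higher in both, 6502 lower in both and 4073 opposite. The 14 members called higher that have both ratios had log2 ratios of 1.16 to 4.58 in the earlier deposit and 0.83 to 3.80 in the later. In 8 of the 14 the earlier ratio was the larger. They were called from these same samples, so their agreement between deposits is not a separate test. The deposits disagreed most for Mmp12 and for Adam32, which had 0.0594 to 0.349 CPM and log2 ratios of −0.84 and 2.20. The within-deposit median over all 58 members was 0.19 in the earlier and 0.43 in the later, beside −0.03 and −0.0008 over all genes with such counts.

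Markers of other cells moved with the surgery in the same libraries. The summed CPM of 12 extracellular matrix fibroblast markers was 1661, 1668 and 1915 in sham and 4562, 4568 and 5629 after PNX. Of these, 6 were called higher with the block, namely the collagens Col1a1, Col1a2 and Col3a1, the small proteoglycans Dcn and Lum, and Mfap5. The fibroblast markers Pdgfra and Tcf21 were not called and had log2 fold changes of −0.45 and −0.23. The 7 mesothelial markers summed to 160, 162 and 389 CPM in sham and 333, 338 and 869 after PNX, with 5 called higher. The part of such cells in the levels of Timp1, Mmp14, Mmp2, Adam12 and the ADAMTSs was not tested. Of 8 mast cell markers 4 were called higher and 0 lower, yet their summed CPM was 642, 639 and 464 in sham and 520, 512 and 427 after PNX. None of 7 neutrophil markers was called. Of 10 smooth muscle and pericyte markers 1 was called higher, and of 7 platelet and erythroid markers 1 higher. Of 6 tested adipocyte markers 3 were called higher. Of 8 alveolar epithelial markers, all 8 with log2 fold changes below 0, 3 were called lower. Over all genes the fit with the block called 3.89% higher and 1.23% lower, so a single call in such a short list says little.

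**Figure D5:**
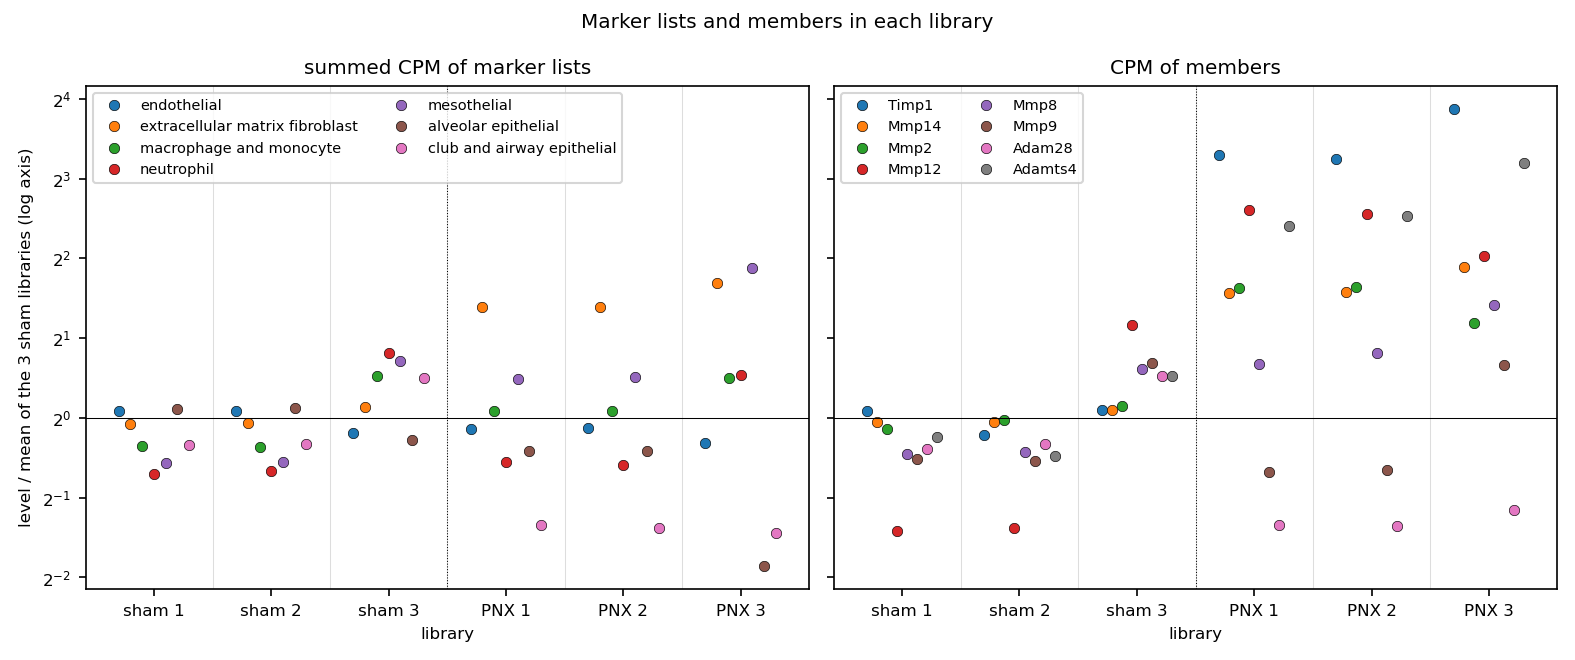
Level in each library (x axis) divided by the mean of the 3 sham libraries (y axis, log scale), for the summed CPM of 7 marker lists (left) and the CPM of 8 members (right). Fibroblast markers and Timp1, Mmp14, Mmp2 and Adamts4 are high in all 3 PNX libraries, Mmp9 and the neutrophil markers are high in both replicates 3, and Adam28 and the airway markers are low after PNX.

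Genes that act on the members were read from lists of the pathway. With the block 3.89% of all genes were called higher and 1.23% lower, so single calls in these short lists say little. Of 8 other inhibitors 7 were tested, and A2m, alpha-2-macroglobulin, which traps proteases of all classes, was called higher with the block, at a low level (mean 0.164 CPM in sham and 1.23 after PNX, adjusted p = 0.171 without the block and 8.81e-03 with it). Reck, the membrane-anchored inhibitor of MMPs, was lower in all PNX libraries (mean 45.7 against 30.05 CPM, log2 fold change −0.60) without a call (adjusted p = 0.386 and 0.0332). None of the 5 ADAMTS-like genes, which resemble ADAMTSs without the protease domain, was called. Adamtsl2 was nearest, with a log2 fold change of 1.01 (adjusted p = 0.387 and 6.36e-03) but, with the block, of 0.95, under the limit. None of 11 tested genes of the activating convertases and the plasminogen system was called by edgeR with the block, while DESeq2 on the 4 samples called Serpinb2, an inhibitor of plasminogen activators (mean 6.94 against 34.9 CPM, edgeR log2 fold change 2.36, adjusted p = 0.285 and 0.0188). The others were not called by either, Furin among them at a mean of 248 and 283 CPM. None of 8 tested regulators of ADAM10 and ADAM17 was called. Of 5 tested other metzincins, Pappa, which cuts IGF-binding proteins, was called higher (mean 1.59 against 5.16 CPM, adjusted p = 0.172 and 7.27e-03), and Bmp1, the procollagen C-proteinase, missed the size limit (log2 fold change 0.93, adjusted p = 0.117 and 1.62e-03). Of 10 binding partners and inducers, Thbs2, a matricellular protein whose binding clears Mmp2, was called higher (mean 1.26 against 17.2 CPM, log2 fold change 3.77, adjusted p = 0.0880 and 2.01e-04).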

How the data were processed

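From stranded mRNA libraries read at both ends, the authors deposited 1 table per library, which lists counts by RefSeq transcript and, beside them, FPKM and TPM; the submitters' processing notes name STAR and mm10. How reads were counted, from which annotation release and whether by strand is not given in the sources used here. FPKM as deposited, scaled by length and library, was not used, and the deposited TPM served only for levels per length. The 79 members had 113 transcripts. Of the 20 members with over 1 transcript, 7 had transcripts of equal counts, so intervals from counts, which cover counting error only, are given for members with 1 transcript.

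Counts were summed per symbol. The tests used R 4.3.3 and edgeR 4.0.16 (filterByExpr, TMM scaling, glmQLFit, glmQLFTest). Alternatives were DESeq2 1.42.0, limma 3.58.1 (voom), other scalings, filters and transcripts, omitted libraries, and the replicate block. The labels tie replicates 1 and 2 of both groups to an earlier deposit, and the earlier-to-later difference in sham correlated with that in PNX across 14156 genes (Pearson's r = 0.732, genes not being independent replicates), so adjusted p-values are printed without and with the block. With 2 samples a group an exact permutation test cannot go below p = 0.333. SE is the log2 fold change divided by the root of the F statistic. CPM uses TMM-scaled library sizes. A floor of 3 counts stands for 0.

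The members and lists were chosen with earlier results of these data known. Described in full are members called in any of the 3 edgeR fits, all TIMPs, the 3 highest sham TPM sums of each class and the 3 lowest fold changes. Mmp9, Mmp12, Adam10, Adam32 and Adamts9, and those given in passing, were named after their values were seen. Positions are from GENCODE vM21 and promoters from RefSeq.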

Additional observations from a re-analysis of the deposited data

How the results depend on the processing

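The number of members called was 0 without a block in edgeR under each scaling, filter and omission tried on the 4 samples, and 0 in the 1 such fit of limma-voom. It depended on the block, the tool and the treatment of replicates 1 and 2. It was 16 with the replicate block, 13 with 6 libraries as separate replicates, 21 with both, 14 with DESeq2, 18 with DESeq2 on 6 libraries, 14 with DESeq2 and the block and 18 with limma-voom and the block. Over all genes these edgeR fits called 849 of 16598, 409 of 16263 and 1104 of 16263. The DESeq2 fits called 585, 927 and 815 of 19812 genes with a fold change, and limma-voom with the block 921 of 16598. With the block and another scaling the number of members called was 15 (size factors of DESeq2), 14 (upper quartile) and 15 (library size alone), with the block and no filter 17, with the block and the transcript of the highest total 16, and with the block without replicate 1 or 2 of both groups 14 to 15. Over all genes the same scalings called 624, 646 and 629 of 16598. The fit with no filter called 985 of 19812 genes and that with the transcript of the highest total 727 of 16494. The fits without replicate 1 or 2 called 589 of 16064 and 898 of 16112. At an adjusted p under 0.05 with no fold limit the number of members was 0 without the block and 29 with it. Of these 29 members of 59 tested, 26 were higher and 3 lower. Among all 16598 genes, 1912 were higher and 1672 lower at this threshold with the block. Of the 16 members called with the block, 12 were called in all 9 other blocked fits. Adamts16 was lost with DESeq2, Mmp13 without replicate 1, Mmp10 in 6 fits and Mmp8 in 4. The cause was not tested.

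The MMP median log2 fold change was 0.94 with DESeq2, 0.88 with limma-voom, 1.01 with DESeq2 on 6 libraries, 0.75 with DESeq2 and the block, 0.84 with limma-voom and the block, 0.87 with library size alone and the block, 0.95 with no filter, 1.00 with no filter and the block, and 0.56 over the members with at least 10 counts in every library. The ADAM median was −0.03 with no filter and −0.13 with no filter and the block. The ADAMTS median was 0.69 with limma-voom, with or without the block, and 0.62 with at least 10 counts, and the TIMP median was 0.16 with at least 10 counts. Leaving out 1 library gave medians of 0.60 (without PNX replicate 3) to 1.23 (without sham replicate 3) for MMPs, −0.04 (without PNX replicate 3) to 0.19 for ADAMs, 0.30 (without PNX replicate 3) to 0.86 for ADAMTSs and −0.04 (without sham replicate 3) to 0.31 (without PNX replicate 3) for TIMPs. Leaving out replicates 1 and 2 of a group together gave 0.91 for MMPs and −0.12 for TIMPs (PNX), and 0.65 for ADAMTSs and 0.34 for TIMPs (sham).

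Of the 28 members described by rule that were tested, 24 kept their direction under the alternatives that gave a value (27 to 29 each). Mmp15, at 0.00, had no direction to keep and ranged from −0.25 to 0.22. Timp3 turned to −0.49 without PNX replicates 1 and 2, and ranged from −0.34 (without sham replicate 3) to 0.40 when 1 library was left out. Timp4 was −1.05 without PNX replicates 1 and 2 and ranged from −0.28 to 0.22 (without PNX replicate 3) when 1 library was left out, and Adamts10 was 0.02 without sham replicates 1 and 2. A fit that leaves a group with 1 sample assumes that it varies like the other group. Other scalings moved the median of all genes by less than 0.1 on the log2 scale. Genes with few counts, such as Mmp10 and Timp4, are limited by depth.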
